A study of Homo sapiens with 12 samples.

Results

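The inhibitor of DNA binding genes ID1, ID2, ID3 and ID4, the inhibitory SMADs SMAD6 and SMAD7, the pseudoreceptor BAMBI, the ligands BMP4 and BMP2 and the receptor BMPR2 were followed through the culture models of JIMT1 cells. These 10 genes were taken by their gene symbols from 20046 genes with a named probe, and 14 array probes carried them. At least 1 probe of 7 of the 10 genes was detected on both arrays of at least 1 group, and these 7 are among the 10970 genes tested. The genes were proposed as a set with earlier results of these arrays in view, so their levels are given as a description, and the adjusted p-values from the fit over all genes place each difference against the spread between arrays without being independent evidence.

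JIMT1 is an epithelial-like, HER2-positive, trastuzumab-resistant breast cancer line, and every group is this 1 line with no added treatment. MG4d and MG7d are cells grown on top of growth factor reduced Matrigel, a basement membrane gel, for 4 and 7 days and freed from it with Dispase. PH4d and PH7d are cells kept for 4 and 7 days on plates coated with polyHEMA, a polymer that stops attachment. The xenografts are tumors from fat pads of BALB/C-nude mice, which lack T cells, taken 43 days after JIMT1 cells were injected with Matrigel, and 2D7d is the monolayer grown on plastic for 7 days. Each group has 2 arrays, labelled as biological replicates, and the tumor RNA was read on human probes while the host cells in it are mouse.

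Bone morphogenetic proteins (BMPs) are secreted ligands that bring together type I and type II serine/threonine kinase receptors. The type I receptor then phosphorylates SMAD1, SMAD5 and SMAD9, which enter the nucleus with SMAD4 and switch on target genes. The ID genes are the classic early targets, and ID proteins bind the E proteins TCF3, TCF4 and TCF12 and keep them and their partners off DNA. SMAD6, SMAD7 and BAMBI are themselves targets that feed back to damp the signal. In mammary epithelial and breast cancer cells, ID1 is known for its links to proliferation and invasion.

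The 250 bases upstream of the annotated start of ID1, ID2, ID3 and BAMBI are shown because these genes had the most differences between groups among the members and are described as BMP targets. They come from RefSeq on GRCh38.p14 (9 of the 10 genes matched), run 5′ to 3′ toward the start site and lie at chr20:31605039-31605288 on the plus strand for ID1, chr2:8681806-8682055 on the plus strand for ID2, chr1:23559502-23559751 on the minus strand for ID3 and chr10:28677271-28677520 on the plus strand for BAMBI. Capitals mark GGCGCC and GGAGCC, the GC-rich elements that SMAD1 and SMAD5 bind, read on either strand.
ID1: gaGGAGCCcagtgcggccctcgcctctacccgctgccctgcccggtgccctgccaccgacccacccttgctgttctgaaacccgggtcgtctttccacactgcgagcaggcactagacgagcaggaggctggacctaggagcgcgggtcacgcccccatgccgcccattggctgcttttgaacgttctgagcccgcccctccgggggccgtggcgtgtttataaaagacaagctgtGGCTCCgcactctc
ID2: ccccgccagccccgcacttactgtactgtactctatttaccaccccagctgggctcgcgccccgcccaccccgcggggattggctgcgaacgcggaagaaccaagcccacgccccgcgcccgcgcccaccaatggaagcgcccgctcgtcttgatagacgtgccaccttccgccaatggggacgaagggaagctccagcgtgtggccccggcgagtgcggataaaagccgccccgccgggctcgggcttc
ID3: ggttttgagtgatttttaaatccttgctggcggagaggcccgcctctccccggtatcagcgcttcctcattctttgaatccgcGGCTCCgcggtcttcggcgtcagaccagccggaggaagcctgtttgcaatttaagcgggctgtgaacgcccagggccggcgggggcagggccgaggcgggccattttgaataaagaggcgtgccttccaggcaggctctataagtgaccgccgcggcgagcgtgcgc
BAMBI: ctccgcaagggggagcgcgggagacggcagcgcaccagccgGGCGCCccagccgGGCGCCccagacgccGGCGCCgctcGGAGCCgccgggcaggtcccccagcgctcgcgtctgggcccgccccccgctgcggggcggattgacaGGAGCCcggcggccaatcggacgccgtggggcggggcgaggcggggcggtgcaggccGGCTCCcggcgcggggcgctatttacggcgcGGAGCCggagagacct
GGCGCC was in 16.4% of 35116 promoter windows of the same length. BAMBI held 3 copies, starting at -209, -196 and -181 from the start site, and ID1, ID2 and ID3 held 0. GGAGCC was in 30.6% of windows. ID1 held 2 copies, ID3 1, BAMBI 4 and ID2 0. The palindromic SMAD box GTCTAGAC, in 0.182% of windows, was in none of these 4 windows and stood once in that of SMAD6, at -12. The CAGA-type SMAD element CAGACA (13.6% of windows) and the E-box form CACGTG (6.34%) were in none of the 4 windows. Other E-box forms were not searched. The SP1 box GGGCGG (42.6%) was found 2 times in ID1, 2 in ID2, 0 in ID3 and 4 in BAMBI. All 6 motifs searched are named here, no marked copy overlaps a copy of another of them, and a match is a description of the letters, not a site. Bases further upstream were not searched, so a count of 0 holds for these windows only.

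ID1 varied the most of the 7 measured genes. Levels are given as normalized log2 intensity, replicate 1 before replicate 2. ID1 stood at 10.34 and 10.59 in MG4d, 9.51 and 9.96 in MG7d, 12.48 and 13.33 in PH4d, 12.65 and 13.23 in PH7d, 7.42 and 7.47 in the xenografts and 12.33 and 12.45 in 2D7d. The order of the means was PH7d, PH4d, 2D7d, MG4d, MG7d and the xenografts. PH7d and PH4d overlapped, and each other neighbouring pair of groups was apart. The group means spanned 45.1-fold, more than in 99.6% of the genes tested.

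Against 2D7d, ID1 was lower by 1.92 in MG4d (log2 difference -1.92 ± 0.33 SE, adjusted p = 0.0145 by limma with Benjamini-Hochberg adjustment), by 2.65 in MG7d (-2.65, adjusted p = 0.0136) and by 4.94 in the xenografts (-4.94, adjusted p = 7.62e-05). These are folds of 3.79, 6.30 and 30.8 lower. PH4d (0.52, 95% confidence interval -0.23 to 1.27) and PH7d (0.55, -0.20 to 1.30) did not pass. Genes were called where the adjusted p was below 0.05 and the change reached 2-fold. The xenograft call remained with any 1 of its 4 arrays left out (adjusted p 0.00182 to 0.0024 by limma). The calls in MG4d and MG7d were lost with any 1 of the 4 arrays left out (adjusted p 0.0788 to 0.119 and 0.0668 to 0.183), with differences of -2.05 to -1.79 and -2.89 to -2.43. Both were kept in all 10 other settings that could be fitted, and without the polyHEMA arrays the differences were -1.93 (adjusted p = 9.63e-06) and -2.66 (2.17e-06).

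The cultures were all above the xenografts in ID1, by 3.02 in MG4d, 2.29 in MG7d, 5.46 in PH4d and 5.50 in PH7d on the log2 scale (adjusted p at most 0.00442 by limma). The MG7d call was lost without MG7d replicate 2 or xenograft replicate 1 (adjusted p up to 0.0634). Between the 3D models ID1 was higher in PH4d than in MG4d by 2.44 (5.43-fold) and in PH7d than in MG7d by 3.21 (9.24-fold), and both calls stayed with either polyHEMA replicate left out. The other ID1 probe, ILMN_1665832, stood at 5.86 and 5.98 in MG4d, 8.76 and 8.68 in PH4d, 8.39 and 9.38 in PH7d and 8.59 and 8.54 in 2D7d. It was not detected on either MG7d or xenograft array, so no difference is given for them.

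**Figure D1:**
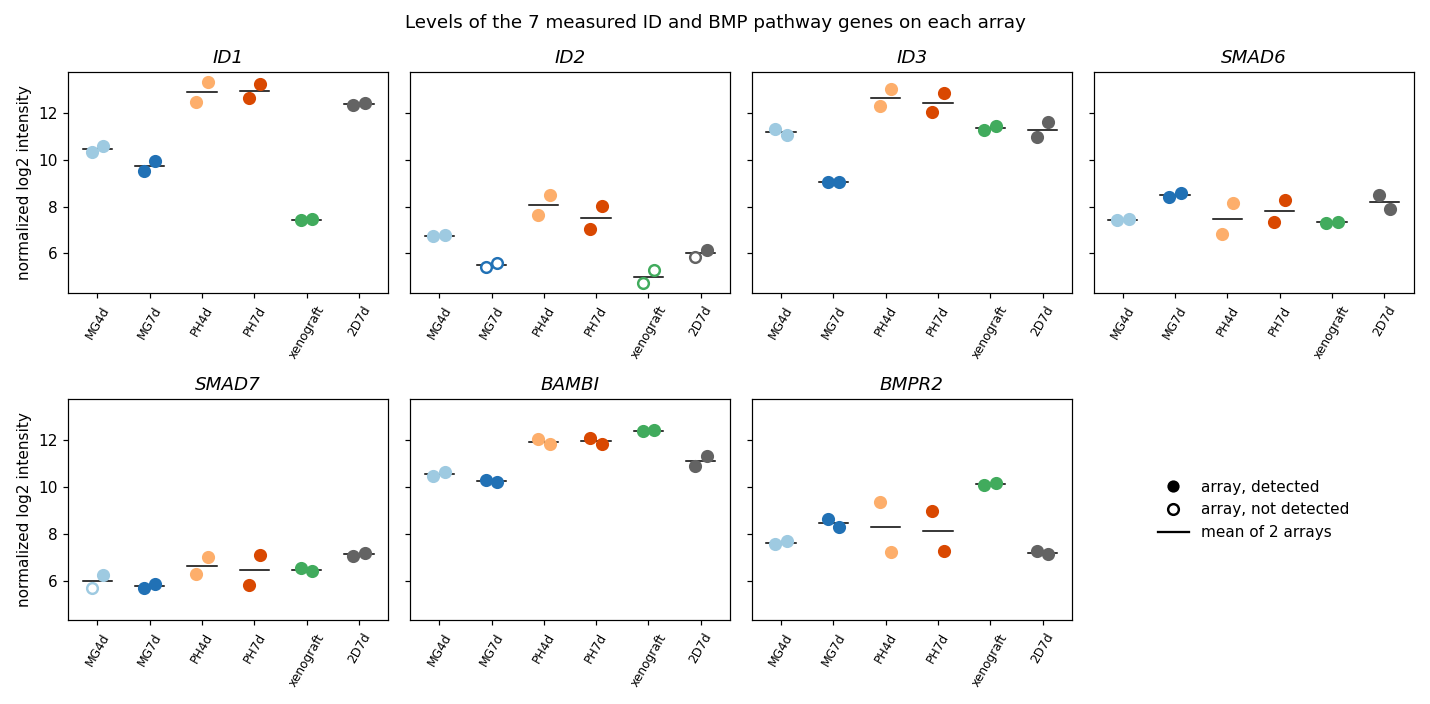
Normalized log2 intensity (vertical axis) of the 7 measured genes on each of the 12 arrays, by group; filled points are arrays that detected the gene, open points arrays that did not, and lines are means of 2 arrays. ID1 sits at 7.42 and 7.47 in the xenografts and between 12.33 and 13.33 in PH4d, PH7d and 2D7d, and the 2 PH4d points of BMPR2 lie 2.15 apart.

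ID3 was lowest in MG7d. It stood at 11.33 and 11.06 in MG4d, 9.07 and 9.05 in MG7d, 12.30 and 13.03 in PH4d, 12.04 and 12.86 in PH7d, 11.27 and 11.43 in the xenografts and 10.96 and 11.62 in 2D7d. PH4d overlapped PH7d, the xenografts overlapped 2D7d and 2D7d overlapped MG4d, while MG7d lay below every other array. ID3 fell in MG7d against 2D7d by 2.23 on the log2 scale (4.69-fold, adjusted p = 0.0176 by limma) and against the xenografts by 2.29 (adjusted p = 0.007). It also fell in MG7d against MG4d by 2.14 (4.40-fold, adjusted p = 0.0358 by limma). With any 1 of the 4 arrays left out these 3 calls were lost (adjusted p 0.0668 to 0.183, 0.0636 to 0.0735 and 0.264 to 0.378). The first 2 were kept in all 10 other settings, and the day 7 minus day 4 call was lost with median scaling and with the authors' processed values (adjusted p up to 0.0888).

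ID3 was higher in PH4d than in MG4d by 1.47 (adjusted p = 0.0285 by limma) and in PH7d than in MG7d by 3.39 (10.5-fold, adjusted p = 0.00102). The day 4 call ended without MG4d replicate 1, MG4d replicate 2 or PH4d replicate 2 (adjusted p up to 0.178), with median scaling (0.0744) and with array weights (0.136), and the day 7 call stayed with any 1 array left out. The change with time differed between the models by 1.92 ± 0.51 (SE) in the direction of a smaller fall on polyHEMA (-0.21 in PH7d minus PH4d, -2.14 in MG7d minus MG4d), which did not pass over all genes (adjusted p = 0.471 by limma). ID3 in the xenografts was 0.06 above 2D7d (adjusted p = 0.895, interval -0.76 to 0.88), and -0.19 under scaling by array medians. ID3 in PH4d and PH7d was above 2D7d by 1.38 and 1.16 (adjusted p = 0.0704 and 0.0919 by limma).

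ID2 was detected on 7 of the 12 arrays. It stood at 6.74 and 6.76 in MG4d, 5.43 and 5.60 in MG7d, 7.64 and 8.48 in PH4d, 7.02 and 8.03 in PH7d, 4.73 and 5.27 in the xenografts and 5.86 and 6.14 in 2D7d. Neither MG7d nor xenograft array detected it, and 1 of the 2 arrays of 2D7d did. PH4d overlapped PH7d, and the other neighbouring groups in the order of means were apart. It was higher in PH4d than in 2D7d by 2.06 (4.16-fold, adjusted p = 0.0205 by limma). That call was lost without either 2D7d array (adjusted p up to 0.144), with array weights (0.137) and with the authors' processed values, where the difference was 0.85. The scale of the processed values at low signal is unknown, so 0.85 and 2.06 are not like for like. In PH7d the difference from 2D7d in the main fit was 1.52 (adjusted p = 0.0509 by limma).

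Because the xenografts did not detect ID2, the folds against them are lower bounds, the brighter mean against the higher of the lowest detected signal and the measured signal on each array. ID2 was at least 2.31-fold higher in MG4d, 5.70-fold in PH4d and 3.94-fold in PH7d than in the xenografts (adjusted p = 0.0193, 0.00194 and 0.0049 by limma). It was also at least 3.55-fold higher in PH7d than in MG7d (adjusted p = 0.0131). Leaving out 1 array ended the MG4d call in each case (adjusted p up to 0.183), the PH7d call without xenograft replicate 1 (0.0659) and the PH7d minus MG7d call without MG7d replicate 1, MG7d replicate 2 or PH7d replicate 2 (up to 0.113). With the authors' processed values the PH7d minus xenograft and PH7d minus MG7d calls of ID2 were lost, at 0.79 and 0.68 on their own scale. The MG4d minus xenograft call was lost there and in 3 other settings. The other ID2 probe, ILMN_2086095, stood at 6.23 and 6.31 in MG4d, 6.87 and 8.15 in PH4d and 6.20 and 8.11 in PH7d and was not detected on any array of MG7d, the xenografts or 2D7d. ID4 was not detected on any of the 12 arrays, with intensities of 68.8 to 88.1.

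**Figure D2:**
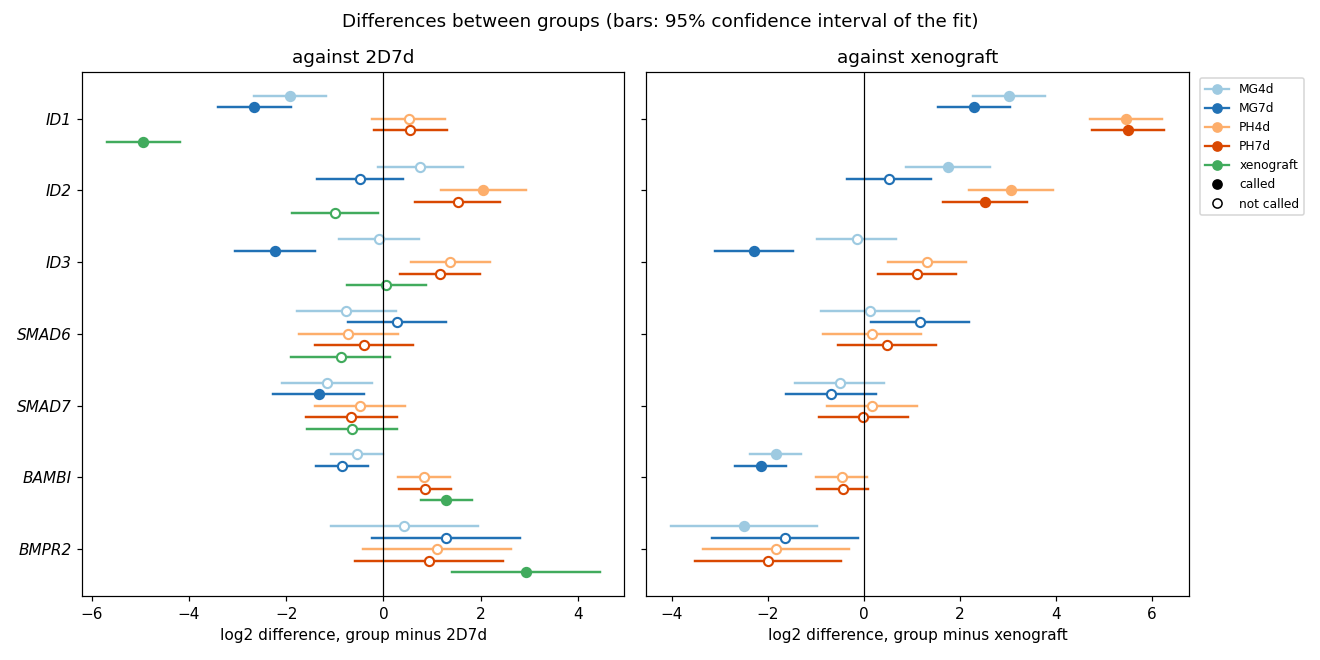
Log2 difference (horizontal axis) of each culture or xenograft from 2D7d (left) and of each culture from the xenografts (right) for the 7 measured genes; bars are 95% confidence intervals of the fit and filled points were called. The ID1 interval for the xenografts minus 2D7d runs over -5.69 to -4.20, and all 5 intervals of SMAD6 against 2D7d include 0.

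SMAD6, which competes with receptor-bound SMADs, passed in no comparison of the fit to all 12 arrays. It stood at 7.42 and 7.46 in MG4d, 8.40 and 8.57 in MG7d, 6.81 and 8.16 in PH4d, 7.33 and 8.27 in PH7d, 7.31 and 7.33 in the xenografts and 8.49 and 7.92 in 2D7d. MG4d and the xenografts had the lowest means and did not overlap 2D7d, while PH4d spanned both. The largest of the 13 differences was 1.16 for MG7d minus the xenografts (adjusted p = 0.209 by limma). Without the polyHEMA arrays SMAD6 was called for MG7d minus the xenografts (1.15, adjusted p = 0.00121 by limma) and MG7d minus MG4d (1.03, 0.00452). It was called in no other comparison of that fit. SMAD7, which blocks the receptors of both the BMP and the TGF-beta pathways, was detected on 11 of the 12 arrays and was highest in 2D7d. It stood at 5.69 and 6.23 in MG4d, 5.70 and 5.87 in MG7d, 6.27 and 7.00 in PH4d, 5.83 and 7.09 in PH7d, 6.52 and 6.42 in the xenografts and 7.05 and 7.19 in 2D7d. No other array overlapped 2D7d except in PH7d, where 1 array lay between the 2D7d arrays. It was lower in MG7d than in 2D7d by 1.34 (-1.34, adjusted p = 0.047 by limma). That call was lost with any 1 of the 4 arrays left out and in 6 of 10 other settings. In the main fit SMAD7 in MG4d minus 2D7d was -1.16 and was not called. Without the polyHEMA arrays SMAD7 was called in MG4d (-1.16, adjusted p = 0.000307 by limma) and MG7d (-1.34, 0.000114) minus 2D7d. No other comparison of that fit called SMAD7. The dimmer SMAD7 probe was detected on 3 of the 12 arrays, none of them of MG7d or 2D7d.

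BAMBI, which resembles a type I receptor but lacks the kinase, was lowest in Matrigel and highest in the xenografts. It stood at 10.47 and 10.66 in MG4d, 10.31 and 10.20 in MG7d, 12.04 and 11.85 in PH4d, 12.11 and 11.82 in PH7d, 12.38 and 12.44 in the xenografts and 10.90 and 11.33 in 2D7d. The 2 Matrigel groups did not overlap, nor did either of them overlap 2D7d, and PH4d overlapped PH7d. BAMBI was higher in the xenografts than in 2D7d by 1.30 (2.46-fold, adjusted p = 0.00932 by limma). This call was lost without xenograft replicate 1, xenograft replicate 2 or 2D7d replicate 1 (adjusted p up to 0.0824), and under scaling by array medians (0.99).

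Against the xenografts, BAMBI was lower in MG4d by 1.84 on the log2 scale (-1.84, adjusted p = 0.00154 by limma) and in MG7d by 2.15 (-2.15, adjusted p = 0.00103). Both calls remained with any 1 array left out. It was 1.38 higher in PH4d than in MG4d and 1.71 higher in PH7d than in MG7d (adjusted p = 0.00585 and 0.00303 by limma). The day 4 call was lost without MG4d replicate 1 (adjusted p = 0.0651) and with array weights (0.0867). In PH4d and PH7d BAMBI was above 2D7d by 0.84 and 0.86, and in MG7d below it by 0.86 (-0.86, adjusted p = 0.0393, under 2-fold).

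BMPR2, the type II receptor, was highest in the xenografts. It stood at 7.55 and 7.68 in MG4d, 8.64 and 8.30 in MG7d, 9.36 and 7.21 in PH4d, 8.97 and 7.27 in PH7d, 10.08 and 10.16 in the xenografts and 7.25 and 7.13 in 2D7d. In both polyHEMA groups replicate 1 stood well above replicate 2, so their means describe neither array, and both xenograft arrays lay above every culture array. BMPR2 was higher in the xenografts than in 2D7d by 2.93 (7.64-fold, adjusted p = 0.0198 by limma), and lower in MG4d than in the xenografts by 2.50 (-2.50, adjusted p = 0.0419). Both calls were lost with any 1 of the 4 arrays left out (adjusted p 0.0764 to 0.122 and 0.177 to 0.204). The xenograft minus 2D7d call was kept in all 10 other settings. The other was lost with median scaling and with no detection filter (adjusted p up to 0.0816). Without the polyHEMA arrays the 2 called differences were 2.91 (adjusted p = 4.72e-07 by limma) and -2.48 (1.79e-06). In the main fit MG7d minus 2D7d was 1.28 and MG7d minus the xenografts -1.65. Neither was called (adjusted p = 0.147 and 0.239 by limma). Without the polyHEMA arrays both were called, at 1.27 (adjusted p = 5.99e-05) and -1.63 (4.52e-05). In that fit MG4d minus 2D7d (0.43) and MG7d minus MG4d (0.84) were not called. The dimmer BMPR2 probe, ILMN_1789095, was detected on 1 of the 2 arrays of 2D7d and gave 3.45 for the xenografts minus 2D7d and -2.74 for MG4d minus the xenografts.

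The ligands of the set were not detected. BMP4 (intensity 63.4 to 80.2) and BMP2 (79.3 to 95.3) were detected on 0 of the 12 arrays. In bulk RNA, fewer cells of a type and less RNA per cell cannot be told apart, and a level below detection is not absence.

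Of the 7 measured members, 1 was called for MG4d minus 2D7d (21.8% of all 10970 genes were called), 3 for MG7d minus 2D7d (21.1%), 1 for PH4d minus 2D7d (4.42%), 0 for PH7d minus 2D7d (6.24%) and 3 for the xenografts minus 2D7d (31.1%). Against the xenografts MG4d had 4 (10.6%), MG7d 3 (5.76%), PH4d 2 (5.16%) and PH7d 2 (7.35%). Between models 3 were called in PH4d minus MG4d (12.2%) and 4 in PH7d minus MG7d (9.41%), and over time 1 in MG7d minus MG4d (0.893%) and 0 in PH7d minus PH4d (0%, 0 of all genes). The fit did not pair arrays by replicate number, while the deviations of same-numbered PH4d and PH7d arrays correlated at 0.87 over 10970 genes. The split between polyHEMA replicates therefore counts as spread in PH7d minus PH4d. The median log2 difference of the 7 from 2D7d was -0.54 for MG4d, -0.86 for MG7d, 0.84 for PH4d, 0.86 for PH7d and -0.65 for the xenografts, beside -0.07, -0.01, 0.03, 0.05 and 0.01 over all genes. The members were chosen with these arrays in view, so nothing is read from these shares.

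Among the members, ID1 and ID2 had a Pearson r of 0.82 over the 12 arrays, ID2 and ID3 of 0.72, ID3 and BAMBI of 0.71 and ID1 and BMPR2 of -0.69. ID1 and BAMBI had -0.0014. The arrays are 6 groups of 2, so the 12 points are not independent. The 5 genes most like ID1 by Pearson r over the 12 arrays were SLPI, a secreted protease inhibitor (0.986), FXYD3, a regulator of the sodium pump (0.984), VGLL1, a TEAD cofactor (0.982), the calcium-binding S100P (0.973) and the protease KLK6 (0.973). SLPI stood at 7.43 and 7.44 in the xenografts and at 11.07 and 11.09 in 2D7d, and S100P at 7.98 and 8.21 in the xenografts and 11.96 and 11.99 in 2D7d. The correlation is a description of these samples only.

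**Figure D3:**
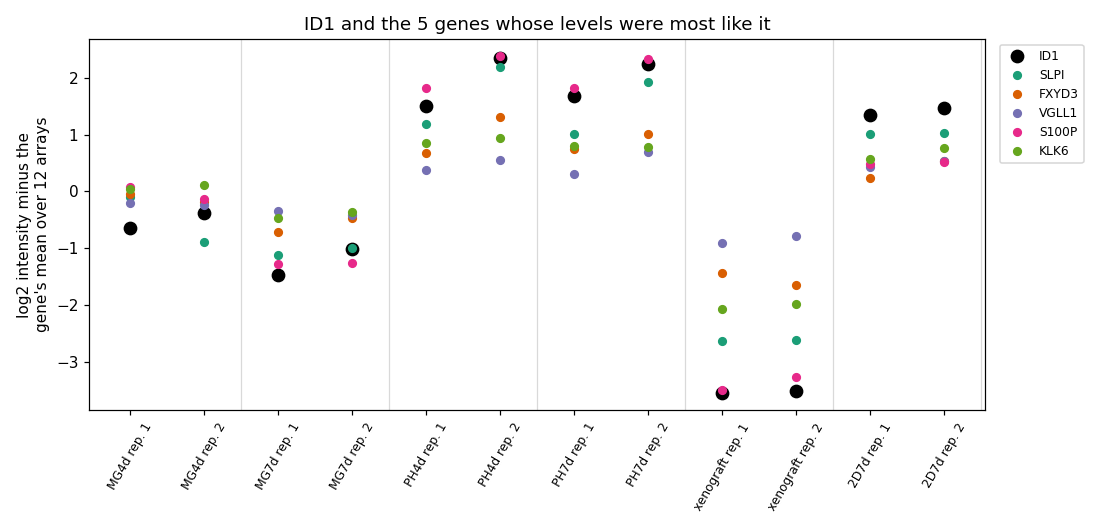
Log2 intensity minus the gene's mean over the 12 arrays (vertical axis) for ID1 and the 5 genes most like it, with each array on the horizontal axis. All 6 genes are lowest on the 2 xenograft arrays, where ID1 sits at 7.42 and 7.47 on the log2 scale.

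Other genes of the pathway were listed with earlier results known, and 49 of the 79 listed were measured. Against 2D7d, MG4d had 6 of them called (2 higher, 4 lower), MG7d 8 (3 higher, 5 lower), PH4d 4 (2 and 2), PH7d 5 (3 and 2) and the xenografts 10 (8 higher, 2 lower). As shares of the 49 these are 12.2% for MG4d (21.8% of all genes), 16.3% for MG7d (21.1%), 8.16% for PH4d (4.42%), 10.2% for PH7d (6.24%) and 20.4% for the xenografts (31.1%). The median difference of the 49 was 0.10, 0.12, 0.08, 0.20 and 0.19 in that order of groups. The ligand BMP7 was higher in PH4d by 1.76, in PH7d by 1.61 and in the xenografts by 2.36 (adjusted p at most 0.0139 by limma). It read 8.56 and 8.55 in the xenografts and 5.92 and 6.47 in 2D7d. The 5.92 of 2D7d replicate 1 is below the lowest detected signal of that array, 6.27. The other 11 ligands listed were not kept. The BMP antagonist NOG was lower in MG4d (-2.01), MG7d (-2.09), PH4d (-3.14) and PH7d (-3.38), and its PH7d call remained with any 1 array left out. Replicate 1 of both polyHEMA groups did not detect NOG.

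Of the receptors and co-receptors, 5 of 10 were measured, and the co-receptor ENG was lower in MG4d (-2.18), MG7d (-1.91) and the xenografts (-2.35). Of 6 SMADs, SMAD5 was higher in MG7d (2.75) and the xenografts (2.67) and SMAD9, not detected in 2D7d, in MG7d. SMAD5 split between the polyHEMA replicates, at 8.99 and 6.62 in PH4d. Of 8 measured extracellular antagonists, FSTL1 (1.72) and TWSG1 (2.33) rose in the xenografts and FSTL3 fell in MG4d (-2.45) and MG7d (-1.68). Of 12 intracellular regulators, the phosphatase PPM1A rose in MG4d (2.39), MG7d (2.15) and the xenografts (2.57), and CTDSP1 fell in MG4d (-1.25). SKIL, not detected in 2D7d, was at least 1.39-fold higher in MG4d. Apart from arrays left out, the MG4d call of SKIL was kept in 4 of 10 other settings, that of PPM1A in 7 and that of CTDSP1 in 9.

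Of 8 measured BMP target genes, HES1 fell in MG7d (-1.56) and GATA2 in the xenografts (-1.75), and DLX5 was at least 1.27-fold higher in PH7d than in 2D7d. Of 9 ID partners and targets, the E protein gene TCF4 was at least 4.46-fold higher in the xenografts, at 8.33 and 8.31 there and not detected on any culture array. THBS1, which ID1 represses in mouse fibroblasts, rose in the xenografts by 3.70 and fell in MG7d by 2.06, and it was at least 4.10-fold lower in PH4d and 4.17-fold lower in PH7d. THBS1 read 11.48 and 11.52 in the xenografts and 8.02 and 7.59 in 2D7d. CDKN1A rose in PH4d (1.65) and CDKN2B in PH7d (2.71) and the xenografts (2.37). Of the 33 calls in these lists, all 14 in MG4d or MG7d were lost with any 1 array of the groups compared left out, while without the polyHEMA arrays 13 of the 49 genes were called in MG4d and 17 in MG7d. Also lost with any 1 array left out were the xenograft calls of ENG, SMAD5, TWSG1, GATA2 and CDKN2B, while those of FSTL1 and PPM1A were kept only without 2D7d replicate 1. The BMP7 calls in PH4d and PH7d and the NOG call in PH4d were lost without 2D7d replicate 1 (adjusted p up to 0.117 by limma), the CDKN1A call without either 2D7d array and the CDKN2B call in PH7d without PH7d replicate 1 or either 2D7d array. The calls of BMP7, TCF4 and THBS1 in the xenografts, of THBS1 in PH4d and PH7d and of DLX5 in PH7d remained with any 1 array left out.

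**Figure D4:**
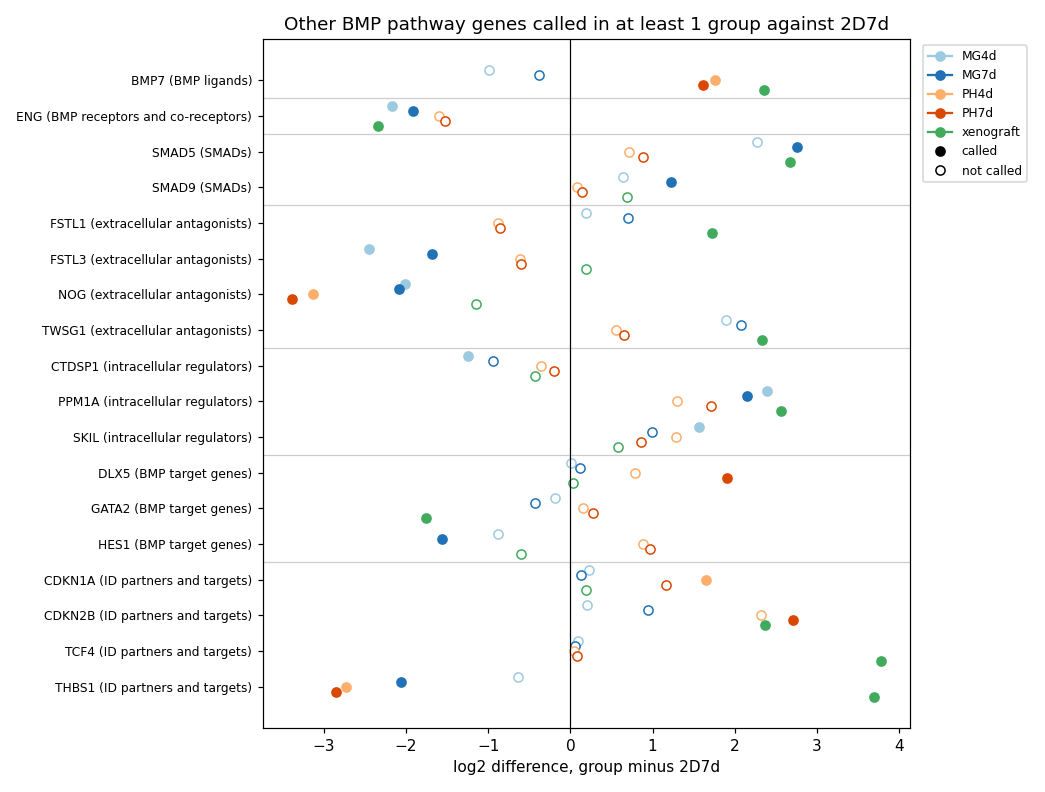
Log2 difference from 2D7d (horizontal axis) of the 18 other pathway genes called in at least 1 group, grouped by list; filled points were called. THBS1 lies at 3.70 in the xenografts, TCF4 is drawn at its fitted 3.77 although 2D7d did not detect it, and NOG lies between -3.38 and -2.01 in the 4 cultures in 3D.

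Among markers of other cells, 3 of 7 fibroblast genes (COL1A1, DCN and LUM) were detected on both xenograft arrays, against 1 (COL1A1) in 2D7d. Sums given here are the log2 of the linear signal added over all genes of a list, detected or not. For the 7 fibroblast genes the sum was 9.09 to 9.45 in the xenografts and 7.93 to 8.27 in 2D7d. COL1A2, PDGFRA and PDGFRB were not detected in the xenografts. For endothelium 2 of 6 genes were detected in the xenografts (PECAM1 and TEK), and VWF, CDH5, KDR and TIE1 were not. All 6 summed to 7.76 to 7.81 there, against 7.74 to 7.81 in 2D7d. Of macrophage and leukocyte genes, 2 of 5 were detected in the xenografts (CD14 and CSF1R) and PTPRC was not. All 5 summed to 9.09 to 9.15 there, against 9.28 to 9.34 in 2D7d. Of 4 adipocyte genes LEP alone was detected in the xenografts, and ADIPOQ, FABP4 and PLIN1 were not. All 4 summed to 8.39 to 8.60 there, against 7.55 to 7.61 in 2D7d. Of 4 erythroid genes HBA2 alone was detected in the xenografts, and HBB and ALAS2 were not. All 4 summed to 8.54 to 8.59 there, against 7.45 to 8.18 in 2D7d. COL1A1, CD14 and CSF1R were also detected on both arrays of every culture group. So were PECAM1 in MG4d, MG7d, PH4d and PH7d, LEP in MG4d, MG7d, PH7d and 2D7d, and HBA2 in MG4d and 2D7d. The endothelial sum was higher in PH4d (8.66 to 8.89) and PH7d (8.61 to 8.78) than in the xenografts. DCN, LUM and TEK were detected on both arrays of the xenografts only. The part of these markers in the rise of BAMBI, BMPR2, TCF4 and THBS1 was not tested, nor was how far these human probes bind mouse RNA. All 8 markers of the JIMT1 line were detected in every group, and ESR1, which the line is labelled to lack, was detected on both arrays of every group while PGR was not.

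The polyHEMA arrays stood apart: 4193 genes (38.2%) differed at least 2-fold between the 2 arrays of PH4d and 3345 (30.5%) in PH7d, against 15 to 216 in the other groups. Of the 7 members, 2 did so in PH4d (SMAD6 and BMPR2) and 3 in PH7d (ID2, SMAD7 and BMPR2), against 0 elsewhere. Without both first polyHEMA arrays, the ID3 difference from 2D7d was 1.76 in PH4d and 1.59 in PH7d (adjusted p = 0.00114 and 0.00216 by limma), and without both second ones it was 1.00 and 0.75 (adjusted p = 0.00665 and 0.0295, with PH7d under 2-fold). BMPR2 in PH4d minus 2D7d was 0.03 without the first arrays and 2.13 without the second. ID1 in PH4d minus MG4d stayed called either way, at 2.89 and 2.00. Over the 12 arrays 13952 to 18430 probes were detected, with median intensities of 95.1 to 107.0.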

How the data were processed

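Total RNA of 12 samples in 6 groups was hybridised to Illumina HumanHT-12 v4 BeadChips with 47323 probes. The authors deposited linear, uncorrected intensity values, 1 per probe and array, each beside a detection p-value. A second table that the authors deposited holds log2-like values from lumi's variance-stabilizing step and quantile normalization, with no lumi version stated in the sources used here; 81.4% of its rows stand under another probe's ID than the row of the intensity table with the same ranks, so it was used only as an alternative with rows matched by rank. Its scale at low signal stays unknown; each column has a median of 7.39, and the values rank as the intensities do, without centring. The number of arrays limits the precision.

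limma 3.58.1 (R 4.3.3) corrected the intensities by normexp with an offset of 16, after which they were quantile-normalized and put on the log2 scale. A probe was kept (18308 were) if some group had a detection p-value below 0.01 on both its arrays, and each gene took its brightest kept probe by mean (10970 genes). Symbols came from the platform annotation: 30113 probes had 1, 8 had several and 17202 were unnamed here. A mean per group was fitted over 12 arrays with lmFit and eBayes (6 residual and 3.17 prior degrees of freedom), p-values were adjusted by Benjamini-Hochberg over all genes, and calls needed an adjusted p below 0.05 together with a 2-fold change. The 13 comparisons were each group against 2D7d, each culture against the xenografts, day 7 against day 4, and polyHEMA against Matrigel. An exact permutation test of 2 arrays against 2 cannot go below 0.33 (two-sided). The script was tested on simulated data.

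Members and lists were chosen with earlier results of these data known. Named were all members, up to 4 called genes per list and comparison by size of difference, the 5 genes most correlated with ID1, and 3 such genes for any other member called in 3 of the 5 comparisons with 2D7d, which none was. Groups come from the sample titles; a title ending in a comma and a number is called replicate 2 here. Alternatives covered background, offset, scaling, probe filter, probe choice, array weights, arrays left out and a replicate block. Slides are not named in the files used here.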

Additional observations from a re-analysis of the deposited data

How the results depend on the processing

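Values of the 7 members that were not called changed sign 26 times with 1 array left out and 21 times under the other settings; 0 of these were called. Of the member differences, 51 calls were lost and 11 gained with 1 array left out, and 22 lost and 41 gained under the other settings. For the other pathway calls 90 of 132 were lost with 1 array left out and 45 of 339 otherwise. With 1 array left out, the group it came from has 1 array in the fit. The cause of the lost calls was not tested. A slide block was not run, as no slide is named. Scaling by medians moved the median over all genes by 0.16 to 0.21 in MG7d, PH4d, PH7d and the xenografts against 2D7d, and the share of higher calls in MG7d to 72.6%, against 51.2%.

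Members called, lowest to highest with 1 array left out, were 0 to 0 in MG4d, 0 to 0 in MG7d, 0 to 3 in PH4d, 0 to 1 in PH7d and 1 to 2 in the xenografts against 2D7d; 2 to 2, 1 to 2, 2 to 4 and 1 to 4 in MG4d, MG7d, PH4d and PH7d against the xenografts; 0 to 0 in MG7d minus MG4d, 0 to 0 in PH7d minus PH4d, 1 to 4 in PH4d minus MG4d and 3 to 5 in PH7d minus MG7d. For the other pathway genes they were 0 to 0, 0 to 0, 1 to 15, 3 to 13 and 3 to 5 against 2D7d. The day 7 minus day 4 difference, PH minus MG, ranged over 0.34 to 1.19 in ID1, 0.22 to 1.20 in ID2, 1.49 to 2.34 in ID3, -1.41 to -0.04 in SMAD6, -0.63 to 0.63 in SMAD7, 0.19 to 0.47 in BAMBI and -2.07 to 0.055 in BMPR2.

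With array weights the members called were 2 in MG4d minus 2D7d, 0 in PH4d minus 2D7d, 5 in MG7d minus xenograft, 3 in MG7d minus MG4d and 1 in PH4d minus MG4d, and the other pathway genes 13, 16, 2, 3 and 17 in MG4d, MG7d, PH4d, PH7d and the xenografts. Without the polyHEMA arrays they were 2 in MG4d minus 2D7d, 5 in MG7d minus xenograft and 3 in MG7d minus MG4d, and 13, 17 and 18 other pathway genes in MG4d, MG7d and the xenografts. Equal replicate numbers have no stated meaning. Over 15 pairs of groups the deviations of same-numbered arrays correlated at -0.12 to 0.87, above 0.1 in 8, among them all 6 pairs of MG7d, PH4d, PH7d and 2D7d. With 2 arrays a group the numbers were not taken to pair samples. With a replicate block, in a fit that treats equal numbers as pairs, members called were 2 in each of MG4d, PH4d and PH7d minus 2D7d, in PH4d and PH7d these being ID2 and ID3, and 13, 14 and 17 other pathway genes in MG4d, MG7d and the xenografts. With the authors' processed values they were 0 in PH4d minus 2D7d, 0 in MG7d minus MG4d and 1 in PH7d minus xenograft, and 3, 2 and 1 other pathway genes in MG7d, PH4d and PH7d. With median scaling they were 1 in PH7d minus 2D7d and 0 in MG7d minus MG4d. With no detection filter 3 other pathway genes were called in MG4d and 3 in MG7d, and with no background correction 3 in PH7d.

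A pair of alternatives was chosen after seeing the data. Without both first polyHEMA arrays the members called were 2 in PH4d and 2 in PH7d minus 2D7d, 4 in PH4d and 4 in PH7d minus xenograft and 5 in PH4d minus MG4d, with 10 and 12 other pathway genes in PH4d and PH7d. Without both second ones they were 4 in PH4d and 3 in PH7d minus 2D7d, with 18 and 21 other pathway genes. The ID3 day 7 minus day 4 difference, PH minus MG, passed in both, at 1.99 and 1.84, and that of SMAD7 was -0.27 without the second arrays and -0.12 with median scaling.

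The sign changes with 1 array left out had these ranges: ID3 in MG4d minus 2D7d -0.42 to 0.23 and in xenograft minus 2D7d -0.27 to 0.39; SMAD6 in MG7d minus 2D7d -0.0068 to 0.56, PH7d minus 2D7d -0.86 to 0.068, PH4d minus MG4d -0.63 to 0.72 and PH4d minus xenograft -0.51 to 0.84; SMAD7 in MG7d minus MG4d -0.44 to 0.091, PH4d minus xenograft -0.20 to 0.53 and PH7d minus xenograft -0.65 to 0.62; BMPR2 in PH4d minus MG4d -0.41 to 1.72 and PH7d minus MG7d -1.20 to 0.49. In PH7d minus PH4d they were -0.39 to 0.46 for ID1, -0.63 to 0.20 for ID3, -0.36 to 0.99 for SMAD6, -0.81 to 0.46 for SMAD7, -0.12 to 0.16 for BAMBI and -1.23 to 0.91 for BMPR2. Under other settings, median scaling gave -0.19 for ID3 in xenograft minus 2D7d, 0.040 for ID3 and -0.026 for SMAD6 in MG4d minus xenograft, -0.0014 for SMAD6 and -0.10 for SMAD7 in PH4d minus xenograft. SMAD7 in PH7d minus xenograft was 0.028 with no background correction, 0.020 with an offset of 50 and 0.027 with the authors' processed values. With the mean of detected probes SMAD7 was -0.14 in PH4d minus xenograft and 0.075 in PH7d minus PH4d. Without the first polyHEMA arrays SMAD6 was 0.069 in PH7d minus 2D7d, SMAD7 0.62 in PH7d minus xenograft, BMPR2 -0.41 in PH4d minus MG4d, and in PH7d minus PH4d ID1 was -0.10, SMAD7 0.092, BAMBI -0.030 and BMPR2 0.060. Without the second ones SMAD6 was -0.51 and SMAD7 -0.20 in PH4d minus xenograft, SMAD6 -0.63 in PH4d minus MG4d and BMPR2 0.49 in PH7d minus MG7d.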
